A study of Homo sapiens with 4 samples.

Results

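The genes described here are the small structured noncoding RNAs listed in polyadenylated RNA of H9, a long-established line of human embryonic stem cells. They were picked by name (small nucleolar, small Cajal body and small nuclear RNAs, 7SL, 7SK, RMRP, RPPH1 and TERC) and by a mean of at least 1 TPM over the 4 libraries. TPM gives the share of transcripts that come from a gene, scaled to a fixed total, with reads divided by transcript length. Of 3349 rows with such names, 108 were above 0 in at least 1 library and 44 reached the mean of 1, and because some rows held the same value in every library, they stand for 38 distinct members of 60671 rows in all. There were 2 control libraries, from H9 cells that the labels call control, and 2 KO+OE libraries, from H9 cells with an edited CFIm25 gene that re-express 3Flag-tagged CFIm25. Both were grown in mTeSR medium without treatment. The labels name the edit a knockout in the sample titles and a knockdown in the series title, and by the study's account its edited lines are single clones that keep a low amount of a shortened protein, with the tagged protein supplied by a lentivirus. Nothing in the labels says whether the 2 libraries of a group came from separate cultures, so the p-values measure only the spread between these libraries. Edited cells without re-expression were not analysed here.

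Small nuclear RNAs build the spliceosome: U1 pairs with the 5′ splice site, U2 with the branch point, and U4, U5 and U12 act in the assembled major or minor machine. Box C/D and box H/ACA small nucleolar RNAs guide 2′-O-methylation and pseudouridylation of ribosomal RNA, and small Cajal body RNAs do the same for snRNAs. Most are cut out of introns of host genes. 7SL is the scaffold of the signal recognition particle, which brings ribosomes to the endoplasmic reticulum, 7SK holds the elongation kinase P-TEFb inactive, and RMRP and RPPH1 are the RNA subunits of RNase MRP and RNase P. Mature forms of these RNAs carry no long poly(A) tail, whereas the libraries were made from RNA bound to oligo(dT), so the values count what passed that selection and not the amount of each RNA in the cell.

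In short, the 7SL genes held most of the signal, and most of the other members were listed in only some of the libraries. RN7SL2 and RN7SL1 together took 68.8% and 62.9% of the summed TPM of the members in control against 58.4% and 55.7% in KO+OE. RN7SL1 was lower in KO+OE, at 69.8% of the control mean, and RMRP and RN7SL2 were lower as well, at 57.0% and 67.7%. In limma 0 members passed an adjusted p of 0.05, which 0.00812% of all rows tested did. An unadjusted p under 0.05 was reached by 5 (13.2%), against 5.33% of all rows, but this is not evidence of an excess. Of these 5, the 2 that were higher in KO+OE reached the mean of 1 TPM only through KO+OE. They also share their KO+OE values, so they are no support for a difference. The other 3 were RN7SL1, RN7SL2 and RMRP. Of the 38 members, 14 were above 0 in 4 libraries, 2 in 3 libraries, 5 in 2 libraries and 17 in a single library. TERC, the template RNA of telomerase, was listed at 0 in every library.

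Several sequences show what the rows can and cannot tell apart. All are transcripts of GENCODE release 44 in their own 5′ to 3′ direction, found by Ensembl identifier. The first set is U1, shown because its rows share sequence. In RNU1-1 the capitals mark the stretch ACTTACCTG near the 5′ end that pairs with the splice site and the Sm site AATTTGTG, to which the ring of Sm proteins binds. In the next pair of lines the capitals mark bases that differ from RNU1-1.
RNU1-1: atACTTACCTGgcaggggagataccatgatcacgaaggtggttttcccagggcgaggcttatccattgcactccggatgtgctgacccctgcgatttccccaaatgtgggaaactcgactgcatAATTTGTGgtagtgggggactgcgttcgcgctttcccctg
RNVU1-7: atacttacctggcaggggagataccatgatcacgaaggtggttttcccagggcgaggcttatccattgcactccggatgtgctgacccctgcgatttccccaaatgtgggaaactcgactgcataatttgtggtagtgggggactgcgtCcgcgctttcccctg
RNVU1-15: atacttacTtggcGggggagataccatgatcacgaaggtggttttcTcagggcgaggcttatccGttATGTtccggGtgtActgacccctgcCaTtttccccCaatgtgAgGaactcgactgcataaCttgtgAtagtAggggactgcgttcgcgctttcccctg

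Counting from 1 at the 5′ end of RNU1-1, RNVU1-7 differed by a single substitution, T150C, and was 99.4% identical. RNVU1-15 was 89.1% identical over 165 aligned columns, and its change C9T falls within the splice site stretch. Of 11 member rows for U1 with a sequence, 7 were identical to RNU1-1 over all 164 bases. Without allowing a mismatch, ACTTACCTG was found in the first 20 bases of 4 of 7 distinct U1 members and of 40 of 129 U1 rows (31.0%), on the strand of the transcript alone. RNU4-2, the snRNA member with the highest mean, is shown with its Sm site, ATTTTTG, in capitals.
RNU4-2: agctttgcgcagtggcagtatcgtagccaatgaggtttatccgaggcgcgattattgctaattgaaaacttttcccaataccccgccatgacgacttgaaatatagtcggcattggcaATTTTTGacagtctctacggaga

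That motif with 5 or 6 T was in 122 of 1802 rows named as U snRNA (6.8%) and in 2 of 11 distinct members with a sequence. RMRP is shown with its runs of 3 or more A in capitals, since a run of A is what oligo(dT) could bind in an RNA without a tail.
RMRP: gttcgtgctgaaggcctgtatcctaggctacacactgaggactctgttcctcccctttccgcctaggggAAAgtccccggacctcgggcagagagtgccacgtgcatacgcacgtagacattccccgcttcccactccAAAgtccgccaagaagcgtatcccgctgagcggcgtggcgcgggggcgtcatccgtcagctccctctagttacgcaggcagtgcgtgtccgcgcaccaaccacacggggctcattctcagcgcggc

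The highest 4 box H/ACA members are shown with the H box, ANANNA, nearest to the middle and the ACA box near the 3′ end in capitals.
SNORA70: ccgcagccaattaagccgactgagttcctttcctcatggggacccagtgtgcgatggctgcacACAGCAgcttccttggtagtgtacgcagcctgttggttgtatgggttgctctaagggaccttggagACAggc
SNORA75: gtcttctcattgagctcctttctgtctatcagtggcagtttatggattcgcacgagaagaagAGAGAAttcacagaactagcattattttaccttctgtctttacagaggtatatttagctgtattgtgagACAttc
SNORA63: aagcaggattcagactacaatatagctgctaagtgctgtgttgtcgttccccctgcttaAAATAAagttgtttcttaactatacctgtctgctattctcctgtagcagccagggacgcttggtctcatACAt
SNORA77B: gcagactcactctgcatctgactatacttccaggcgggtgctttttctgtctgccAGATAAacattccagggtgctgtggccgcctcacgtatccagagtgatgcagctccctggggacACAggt

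An ACA followed by exactly 3 more bases ended 9 of 10 box H/ACA members with a sequence and 121 of 183 rows of that class (66.1%). The loose ANANNA motif occurred somewhere in 9 of the 10 and in 98.9% of the class. It was also in 90.4% of the rows named as U snRNA, so a match alone does not identify the H box. The longest run had a median of 3 bases over 29 distinct members with a sequence, and 1 of them held a run of 6 or more. Among members shorter than 200 nt, 0 of 23 held such a run, against 6.4% of 1662 rows of matching names over 100 and under 200 nt that were at 0 in all libraries. Over all matching rows the shares lay the other way: 21 of 93 rows above 0 in a library (22.6%) held a run of 6 or more A, against 7.9% of 3074 rows at 0. Among rows at 0 and over 100 nt the share was 8.3%. These rows were not matched for class or further for length, and whether a run of A led to the listing of a row was not tested.

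**Figure D1:**
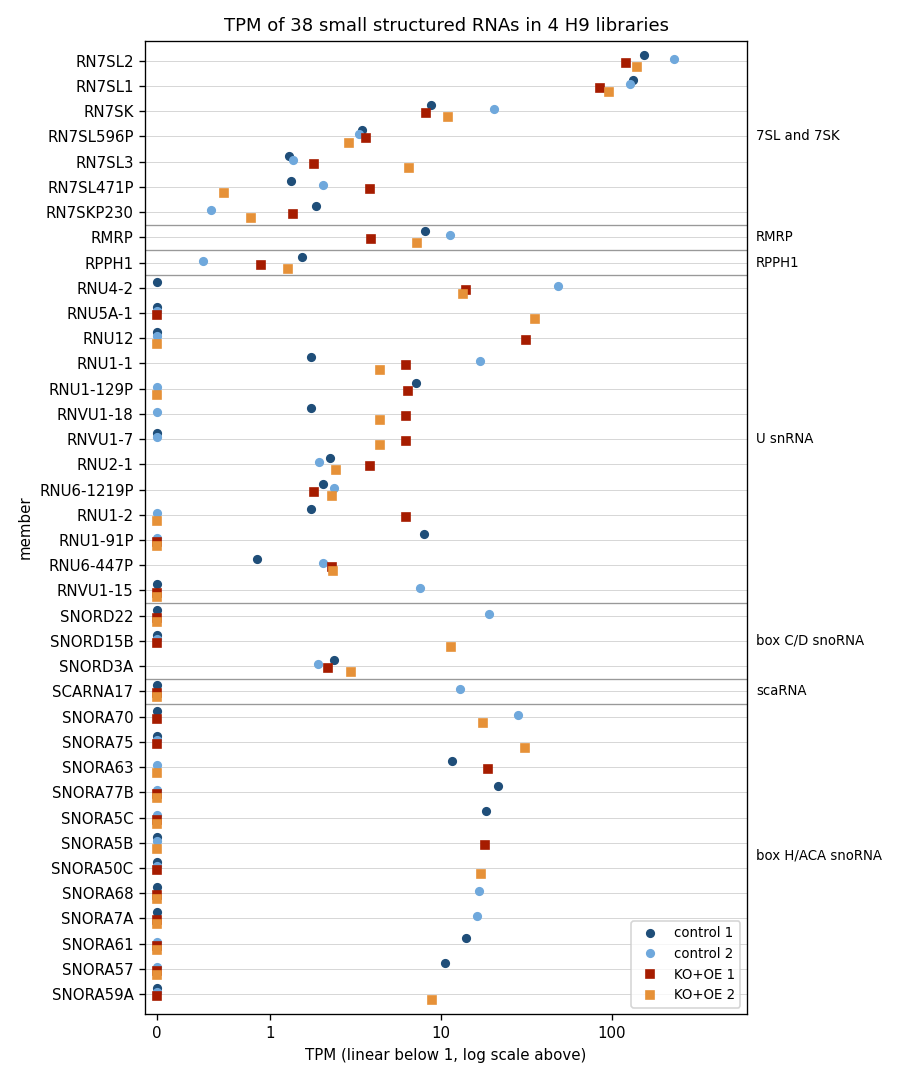
TPM of the 38 distinct members (horizontal axis, linear below 1 and logarithmic above) in each library, with circles for control and squares for KO+OE, grouped by class and ordered by mean. The 7SL and 7SK rows were above 0 in every library, whereas 10 of 12 box H/ACA members have a single point away from 0.

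The scaffold RNA of the signal recognition particle was the most abundant. RN7SL2 (hg38, chr14:49862551-49862849) had 154.44 and 232.88 TPM in control against 121.04 and 141.15 TPM in KO+OE. The groups did not overlap, and control replicate 2 stood well above the other 3 libraries. The difference on the log2(TPM + 1) scale was −0.53 (95% interval −1.05 to −0.02; limma, unadjusted p = 0.0454, adjusted p = 0.928). The threshold of 0.05 was no longer reached without control replicate 2 (difference −0.24), without KO+OE replicate 1 (−0.42) or without KO+OE replicate 2 (−0.64). RN7SL1 (chr14:49586580-49586878), a further 7SL gene on the same chromosome, had 132.30 and 127.63 TPM in control against 85.67 and 95.65 TPM in KO+OE. Here the replicates lay close together, with means of 129.97 ± 3.30 and 90.66 ± 7.06 TPM (SD, n = 2), so the gap between the groups was larger than the spread within them. Its difference was −0.52 (−0.68 to −0.35; limma, unadjusted p = 0.000455, adjusted p = 0.467). The ratio of RN7SL2 to RN7SL1 was 1.17 and 1.82 in control against 1.41 and 1.48 in KO+OE. RN7SL1 and RN7SL2 both encode 7SL, their sequences were not compared here, and the handling of reads that match several places is not given in the sources used here, so how reads were split between them is uncertain. The sum of the pair was 286.74 and 360.51 TPM in control against 206.71 and 236.80 TPM in KO+OE, a ratio of the means of 0.685.

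RN7SL3 (chr14:49853616-49853914) was far lower, with 1.29 and 1.35 TPM in control against 1.81 and 6.51 TPM in KO+OE. It was the 7SL gene whose groups did not overlap in the other direction, and KO+OE replicate 2 alone carried most of its higher mean (difference 0.99, −0.22 to 2.19; limma, unadjusted p = 0.0901, adjusted p = 0.931). The copy RN7SL596P held 3.42, 3.31, 3.63 and 2.88 TPM, in the order control 1, control 2, KO+OE 1 and KO+OE 2. RN7SL471P ranged from 0.59 to 3.81 TPM, with both extremes in KO+OE.

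RN7SK (chr6:52995620-52995951), the 7SK RNA, had 8.74 and 20.28 TPM in control against 8.14 and 11.03 TPM in KO+OE. The groups overlapped, and the control pair differed from each other by more than the group means did (difference −0.46, −1.45 to 0.53; limma, unadjusted p = 0.289). Its copy RN7SKP230, with 1.86, 0.48, 1.35 and 0.83 TPM, was 1 of the 2 members just above the threshold on the mean, at 1.13 TPM. The other was RPPH1 at 1.03 TPM, and just outside stood SCARNA9 at 0.985 and RNU2-17P at 0.978 TPM.

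RMRP (chr9:35657750-35658019) had 8.09 and 11.29 TPM in control against 3.86 and 7.18 TPM in KO+OE. Both control libraries were above both KO+OE libraries, with means of 9.69 ± 2.26 and 5.52 ± 2.35 TPM (SD, n = 2). The difference was −0.75 (−1.49 to −0.001; limma, unadjusted p = 0.0497, adjusted p = 0.931). It missed 0.05 without control replicate 1 (difference −0.96), control replicate 2 (−0.53) or KO+OE replicate 1 (−0.37). RPPH1 (chr14:20343071-20343411), the RNase P RNA, had 1.53 and 0.41 TPM in control against 0.92 and 1.27 TPM in KO+OE, and its groups overlapped.

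**Figure D2:**
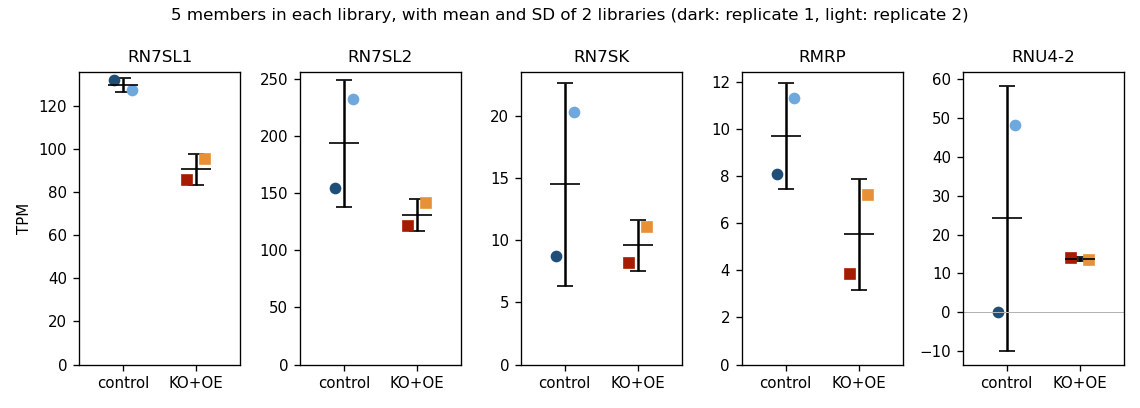
TPM (vertical axis) of RN7SL1, RN7SL2, RN7SK, RMRP and RNU4-2 in control (circles) and KO+OE (squares), with a horizontal bar at the mean and whiskers of 1 SD of 2 libraries. The RN7SL1 replicates lie close together, at 132.30 and 127.63 against 85.67 and 95.65 TPM, whereas the RNU4-2 control libraries stand at 0 and 48.25 TPM.

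Several snRNA members varied widely between libraries of one group. RNU4-2 (chr12:120291759-120291903), the main U4 gene, was at 0 in control replicate 1, 48.25 TPM in control replicate 2, and 14.07 and 13.43 TPM in KO+OE. RNU5A-1, a U5 gene, was listed only in KO+OE replicate 2, at 35.26 TPM. RNU12, the U12 RNA of the minor spliceosome, was listed only in KO+OE replicate 1, at 31.43 TPM. RNU2-1, the U2 gene, was in every library at a low level, 2.24 and 1.92 TPM in control against 3.82 and 2.43 TPM in KO+OE. Its groups did not overlap, and the interval of its difference spanned 0 (0.40, −0.14 to 0.95; limma, unadjusted p = 0.116).

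The U1 rows of the same sequence did not hold the same values. RNU1-1, RNU1-3, RNU1-4 and RNU1-28P each had 1.72 and 16.95 TPM in control against 6.23 and 4.40 TPM in KO+OE. RNVU1-18 and RNU1-27P, identical to them in all 164 bases, had 1.72 and 0 TPM in control against 6.23 and 4.40 TPM in KO+OE. RNU1-2, identical again, had 1.72 and 0 TPM in control against 6.23 and 0 TPM in KO+OE. RNVU1-7 (chr1:148038753-148038916), with its single substitution, had 0 in both control libraries and the same 6.23 and 4.40 TPM in KO+OE. The nonzero values were thus shared across rows, and what varied was in which rows they were listed. This pattern gave 2 of the members with the lowest p. RNVU1-7 had an unadjusted p of 5.42e-05 and an adjusted p of 0.307 in limma, and as it was listed at 0 in control, no fold is given. RNVU1-18 had a difference of 1.92 (0.65 to 3.20; limma, unadjusted p = 0.0117, adjusted p = 0.928). It missed 0.05 without KO+OE replicate 1 (difference 1.71) or KO+OE replicate 2 (2.13). All 13 U1 member rows were also summed, so values that several rows share enter the sum more than once. The sum was 28.81 and 82.76 TPM in control against 62.44 and 35.20 TPM in KO+OE, and the groups overlapped. Its means were 55.8 ± 38.2 and 48.8 ± 19.3 TPM (SD, n = 2). The higher values of RNVU1-7 and RNVU1-18 in KO+OE were not seen in this sum.

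**Figure D3:**
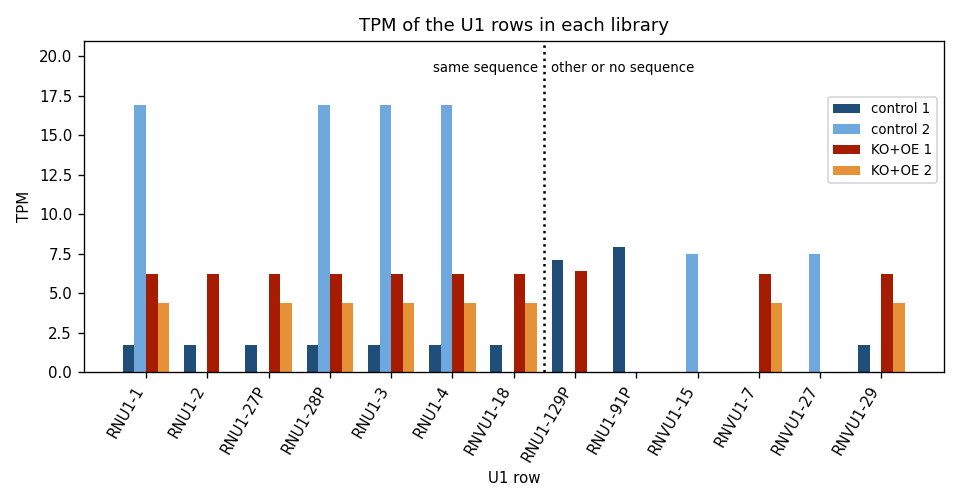
TPM (vertical axis) of the 13 U1 member rows in each library, with rows of the same 164 bases as RNU1-1 left of the dotted line. In control replicate 2 the 16.95 TPM stands in RNU1-1, RNU1-28P, RNU1-3 and RNU1-4 and the other rows of the same sequence are at 0, whereas KO+OE replicate 1 holds 6.23 TPM in every row of that sequence.

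A pair of short U6 copies was listed in every library at low values. RNU6-1219P (112 nt) had 2.04, 2.37, 1.80 and 2.30 TPM and RNU6-447P (104 nt) had 0.88, 2.03, 2.29 and 2.33 TPM, in the order given above. Both were in all 4 libraries at values under the lowest single-library value of members of over 110 and up to 130 nt, which was 13.91 TPM. Such members must be high in their library to reach the mean of 1 TPM. Single-exon rows of that length that are not members went down to 6.45 TPM in the library that listed them. Rows outside the members that were listed in several libraries were not compared. The transcript length that went into their TPM is not given in the sources used here. RNU1-129P was listed in replicate 1 of each group, at 7.10 and 6.37 TPM, and RNU1-91P only in control replicate 1, at 7.95 TPM.

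The guide RNAs of ribosomal RNA were listed mostly in a single library each. Of 12 box H/ACA members, 10 were above 0 in 1 library and 2 in 2 libraries. SNORA70 was listed in replicate 2 of each group, at 28.11 TPM in control against 17.55 TPM in KO+OE. SNORA63 was listed in replicate 1 of each group, at 11.62 and 18.90 TPM. SNORA75 reached 30.86 TPM in KO+OE replicate 2 and SNORA77B 21.42 TPM in control replicate 1, and each was at 0 in the other 3 libraries. SNORA5C and SNORA5B, from the same host gene TBRG4, were listed in different groups, at 18.36 TPM in control replicate 1 and 18.08 TPM in KO+OE replicate 1. The remaining 6 members of this class lay between 8.90 and 17.23 TPM in the library that listed them.

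Of 3 box C/D members, SNORD3A, the U3 RNA needed for cleavage of the ribosomal precursor, was the one listed in every library, with 2.35 and 1.91 TPM in control against 2.18 and 2.97 TPM in KO+OE. Its transcript in the annotation was 699 nt, the longest of all members, whereas its RefSeq position (chr17:19188016-19188232) spans less. The groups of SNORD3A overlapped (difference 0.19, −0.29 to 0.66; limma, unadjusted p = 0.359). SNORD22 was listed only in control replicate 2, at 18.98 TPM, and SNORD15B only in KO+OE replicate 2, at 11.37 TPM. SCARNA17, a guide RNA of Cajal bodies, was listed only in control replicate 2, at 12.83 TPM. Its transcript in the annotation was 144 nt, whereas its RefSeq position (chr18:49814023-49814443) spans more.

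By annotated length members ran from 104 to 699 nt, and which rows were listed varied with length. Of rows with matching names of at most 100 nt, 0 of 565 were above 0 in any library. The share was 0.25% of 1184 rows of over 100 to 120 nt, 3.24% of 247 rows of over 120 to 140 nt, 4.59% of 109 rows of over 140 to 160 nt and 8.61% of the rows of over 160 to 200 nt, then 6.53% of 659 rows of over 200 to 300 nt and 6.58% of 243 rows of over 300 to 400 nt. Among other rows with a single exon the share was 0.18% of 1672 rows of at most 100 nt, 4.07% of 442 rows of over 160 to 200 nt, 6.85% of 1533 rows of over 200 to 300 nt and 11.8% of 1736 rows of over 300 to 400 nt.

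The value of a row listed in a single library also tended to fall with length. RNU5A-1 at 116 nt had 35.26 TPM, SNORA7A at 139 nt had 16.32 TPM, SNORA59A at 152 nt had 8.90 TPM and RNVU1-15 at 165 nt had 7.48 TPM. Members also departed from this order. RNU12 at 150 nt had 31.43 TPM, and at 137 nt SNORA75 had 30.86 TPM against 18.36 TPM for SNORA5C. Other rows are here all rows of a single exon that are not members. They include rows of matching names under the threshold, such as copies of 7SL and 7SK. Over the 17 members listed in 1 library, Spearman's rho of value and length was −0.69, and over 22 other rows under 200 nt it was −0.75. These are descriptions across genes, which share 4 libraries and are not independent. For other rows of over 280 and up to 310 nt listed in 1 library the median was 0.68 TPM (38 rows). It was 9.0 TPM for 4 other rows of over 140 and up to 150 nt and 12.1 TPM for the 4 members of that length. A member listed in 1 library must be high there to reach the mean of 1 TPM, whereas the other rows have no such floor.

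**Figure D4:**
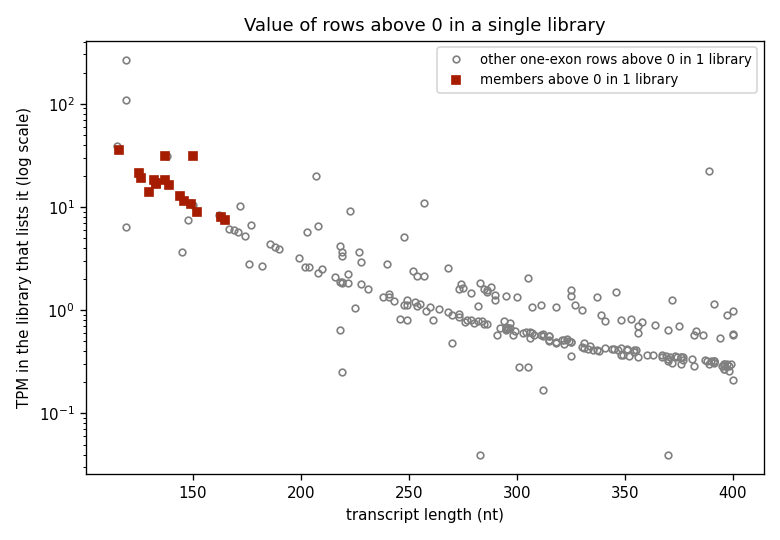
TPM (log scale) in the only library that lists a row against its transcript length in nt. Squares are the 17 members and open circles other rows of a single exon up to 400 nt, including rows of matching names under the threshold. The members run from 35.26 TPM at 116 nt to 7.48 TPM at 165 nt, with RNU12 standing apart at 31.43 TPM and 150 nt. The other rows go on falling to a median of 0.35 TPM over 350 and up to 400 nt.

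Set against the median of single-library rows within 10 nt of the same length, RN7SL2 and RN7SL1 stood highest, RN7SK next, and the other members with such a median closer to it. Those rows leave out the members but keep rows of matching names under the threshold, among them copies of 7SL and 7SK. As the members were picked by level, the multiples are a description only. RN7SL2 was 183.4 to 352.8 times that median, RN7SL1 129.8 to 200.5 times and RN7SK 16.6 to 41.4 times. RMRP was 3.6 to 10.6 times, RPPH1 1.0 to 3.6 times, RN7SL3 2.0 to 9.9 times, RN7SL596P 3.6 to 4.5 times and RN7SL471P 0.9 to 5.6 times. RNU4-2 was 4.6 times in control replicate 2 and 1.3 times in both KO+OE libraries, and RNVU1-7 was 1.0 and 0.7 times where it was listed. The table holds no counts, so depth and counting error are unknown, but differences in values near 1 on this scale cannot be read as differences in level.

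Most guide RNA members lay inside host genes. Of 16 snoRNA and scaRNA members, 13 matched the annotation by identifier and 12 of these lay inside another gene on the same strand, 9 of them overlapping an exon of a transcript of that gene. VPS13D, the host of SNORA59A, had the lowest mean of these hosts, at 1.35 TPM. RPL10, which holds SNORA70, had 4654 and 4537 TPM in control against 4585 and 4311 TPM in KO+OE, in libraries where SNORA70 was 0, 28.11, 0 and 17.55 TPM. NCL, the nucleolin gene, which holds SNORA75, had 51.43, 52.73, 56.52 and 57.81 TPM, while SNORA75 was listed once. Where a member overlaps an exon of its host, fragments of the host and of the small RNA cannot be told apart in this table.

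Across all 12319 rows with a mean of at least 1 TPM, 1 row passed an adjusted p of 0.05 (0.00812% of rows tested), and it was not a member. Of the 38 members 0 passed, the lowest adjusted p among them being 0.307 in limma. An unadjusted p under 0.05 was reached by 5 members (13.2%), against 5.33% of all rows, with 2 higher in KO+OE (RNVU1-7 and RNVU1-18; 2.26% of all rows) and 3 lower (RN7SL1, RN7SL2 and RMRP; 3.06% of all rows). With median-ratio rescaling, quantile normalization, a mean of at least 5 TPM, no threshold on the mean or no trend, 3 members reached it, and 7 to 12 did when a library was left out. RNVU1-7 and RNVU1-18 had control means of 0 and 0.86 TPM and passed the threshold on the mean only through KO+OE, where both were at 5.32 TPM, so their counts are no support for a difference. The U1 pair also shares its nonzero KO+OE values, so the 5 are not independent. The 2 groups did not overlap for 5 members that were higher in KO+OE (13.2%, against 14.5% of all rows) and 3 that were lower (7.9%, against 19.6%). The 17 members above 0 in 1 library could not be called this way, since the group that lists them also holds a 0. The shares of the members can therefore not be read against those of all rows. The median difference of the members was −0.02 on the log2(TPM + 1) scale, against −0.01 over all rows, with 19 members above 0 and 19 below. Of the members, 21 reached a mean of 1 TPM in only 1 of the groups.

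**Figure D5:**
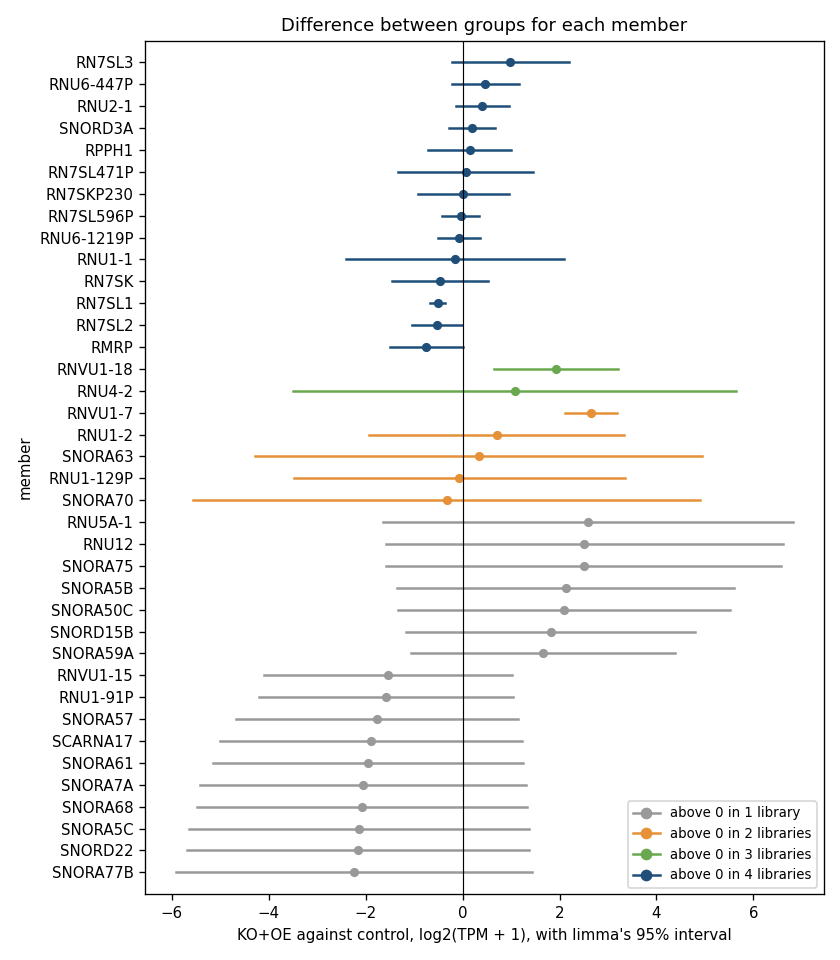
KO+OE against control difference on the log2(TPM + 1) scale (horizontal axis) with limma's 95% interval for each member, coloured by the number of libraries in which it is above 0. Grey intervals, of members above 0 in 1 library, all span 0 and have a median width of 6.80, whereas the blue ones, of members above 0 in 4 libraries, have a median width of 1.43.

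For members listed in 1 library, limma gave differences between −2.24 and 2.59 with unadjusted p between 0.176 and 0.181, whichever the gene. The median width of their intervals was 6.80 on the log2(TPM + 1) scale, against 1.43 for members in 4 libraries and 0.63 over all rows. A difference of several fold would therefore not be detectable for these members with 2 libraries a group.

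By class, the sum of the 7 members named 7SL or 7SK was 303.37 and 387.95 TPM in control against 225.45 and 258.64 TPM in KO+OE, without overlap. The 13 U snRNA members summed to 25.37 and 79.00 TPM in control against 84.70 and 68.95 TPM in KO+OE, with control replicate 1 standing apart. The 12 box H/ACA members summed to 75.90 and 61.21 TPM in control against 36.98 and 74.54 TPM in KO+OE, and the 3 box C/D members to 2.35, 20.89, 2.18 and 14.34 TPM. In both of these classes the groups overlapped. All members together made up between 0.0359% and 0.0581% of a library.

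The proteins that bind or process these RNAs were compared as well. Of 67 partner genes, 62 were tested, none passed an adjusted p of 0.05, and 2 (3.23%) had an unadjusted p under 0.05 in limma, both higher in KO+OE, a share under the 5.33% of all rows in either direction and near the 2.26% of all rows that were higher. These were SRP54, the subunit of the signal recognition particle that binds signal peptides, with 2.32 and 3.01 TPM in control against 3.66 and 4.42 TPM in KO+OE (difference 0.46; unadjusted p = 0.0394, adjusted p = 0.928), and POP4, a protein of RNase P and RNase MRP, with 12.54, 15.26, 20.95 and 17.84 TPM (difference 0.45; unadjusted p = 0.0162, adjusted p = 0.928). The other 5 tested SRP proteins had differences between −0.31 and 0.20. The 4 box C/D proteins lay between −0.09 and 0.03, among them fibrillarin (FBL), the methyltransferase, at 1142 and 1139 TPM in control against 1171 and 1165 TPM in KO+OE. The 6 box H/ACA proteins lay between −0.07 and 0.19, with dyskerin (DKC1), the pseudouridine synthase, at 32.56, 32.73, 32.62 and 31.49 TPM. The 17 tested genes for transcription and 3′ ends of snRNAs, of the SNAPc and Integrator complexes, lay between −0.26 and 0.28.

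NUDT21, which encodes CFIm25, had 160.67 and 152.20 TPM in control against 162.09 and 156.60 TPM in KO+OE. Its groups overlapped (difference 0.03, −0.09 to 0.14; limma, adjusted p = 0.98). As the KO+OE cells re-express CFIm25, this level cannot serve as a check of the labels. The 6 pluripotency markers were all present, between 15.85 and 2212 TPM. Of the germ layer markers GATA6 reached 8.39 TPM, and the other mesoderm, endoderm and ectoderm markers were at 0.59 TPM or lower. The fibroblast list was not at 0, with THY1 (which stem cells also express) at up to 1352 TPM and COL1A1 between 53.86 and 55.60 TPM, at like levels in both groups. Its part in the values of the members was not tested.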

How the data were processed

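RNA of 4 H9 libraries was selected on oligo(dT) beads and sequenced as read pairs. The authors deposited a table of TPM per Ensembl gene, with sums of 986853 to 987078 per library. The submitters' notes name HISAT2, Subread, featureCounts, DESeq2 and the build hg38. The step that made TPM, the annotation version and the handling of reads with several matches are not given in the sources used here. The deposited table holds no counts, so depth and counting error are unknown. It had 0 other columns with values of a sample.

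The members and gene lists were chosen with earlier results of these data known. Values were set to log2(TPM + 1), which understates the change of low genes. Rows with a mean of at least 1 TPM were fitted in limma 3.58.1 (lmFit, then eBayes with trend, R 4.3.3), two-sided, on group alone, with Benjamini-Hochberg adjustment over all 12319 rows. The step was tested on simulated data with normal noise, where only rows of higher level were changed. Rows at 0 in some of the libraries were not imitated, so that test does not cover such members. Named members are the highest 4 of each class, the single-gene classes with RN7SK, RN7SL1 and RN7SL2, those whose groups did not overlap at an unadjusted p under 0.05, those with the largest gap between replicates, and those next to the threshold. RN7SL3, RN7SL471P, RNU2-1, RNU1-2, RNU1-91P, RNU1-129P, RNVU1-15, both U6 copies, SNORA5B, SNORA5C, SNORA7A and SNORA59A were named after their values were seen. Lengths and sequences came from GENCODE release 44 on GRCh37 by identifier (33 of 44 member rows), and 10 further lengths and all hg38 positions from RefSeq by symbol. Motifs were searched on the strand of the transcript. Alternatives were pseudocounts of 0.1 and 5, no filter, a mean of 5 TPM, median-ratio and quantile scaling, no trend, a replicate block, and each library left out in turn. Python 3.11.15 was used with pandas 2.3.3 and Biopython 1.88. A few sequences and 1 host gene are not reported here.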

Additional observations from a re-analysis of the deposited data

How the results depend on the processing

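No member passed an adjusted p of 0.05 under any of the 12 alternatives. The 5 members at an unadjusted p under 0.05 became 3 without a filter, with a filter at a mean of 5 TPM (12 members then fitted), with median-ratio rescaling, with quantile normalization and without the trend, and 3 among the 14 members above 0 in 4 libraries, a choice made after seeing the data. Leaving out a library gave 7 to 12, where the lone library of its group is assumed to vary like the others and rows with equal remaining values have no spread. RN7SL1 stayed lower at an unadjusted p under 0.05 in 12 of 12 alternatives (−0.60 to −0.44, adjusted p 0.433 to 0.873). RN7SL2 (−0.83 to −0.24) and RMRP (−1.12 to −0.37) kept their direction but passed in 5 of 12 each. Without control replicate 2 RN7SL2 was at −0.24, and without KO+OE replicate 1 RMRP was at −0.37. With all libraries kept, RNVU1-7 and RNVU1-18 passed under every alternative that fitted them. Both reached the threshold on the mean only through KO+OE and share their nonzero KO+OE values, so this is no support for a difference. RNU1-1, identical in sequence to RNVU1-18, had a difference of −0.16. Over all rows fitted, same-numbered libraries did not deviate together (correlation −0.05). A single correlation over all rows cannot settle whether the numbers pair the libraries. With the replicate number as a block the counts stayed at 0 and 5, but the unadjusted p in limma moved. It fell to 0.00456 for RN7SL2, 0.0041 for RMRP and 0.00253 for RNVU1-18. For RN7SL1 and RNVU1-7 it rose, to 0.00105 and 0.000174. Adjusted p was between 0.357 and 0.782 for these members. The median difference ranged from −0.21 to 0.00 when a library was left out. RN7SKP230 turned to −0.011 with a pseudocount of 5 and to −0.008 with quantile normalization. Leaving out 1 library turned the sign of 8 of 21 named members, whose differences then ranged from −1.02 to 0.11 for RN7SK, −0.17 to 0.085 for RN7SL596P, −0.46 to 0.49 for RN7SKP230, −0.28 to 0.57 for RPPH1, −1.74 to 3.88 for RNU4-2, −1.52 to 1.20 for RNU1-1, −2.76 to 2.11 for SNORA70 and −1.83 to 2.49 for SNORA63. A member listed in 1 library cannot turn sign in this way. The differences of RNU5A-1, RNU12, SNORD22, SNORD15B, SNORA75, SNORA77B and SCARNA17 fell to 0.0 without the library that lists them. They are not among the 8 but did not keep a direction. KO+OE minus control, the summed 7SL and 7SK level was −103.62 TPM, and −41.05 TPM without RN7SL2. When a library was left out that sum ranged from −145.9 to −61.33 TPM and SCARNA17 from −12.83 to 0.00 TPM, while other class sums changed sign: U snRNA ranged from −2.18 to 51.45 TPM (24.64 with all libraries), box C/D from −12.63 to 5.91 TPM (−3.36), box H/ACA from −31.58 to 5.98 TPM (−12.80) and RPPH1 from −0.44 to 0.68 TPM (0.12). Box C/D also turned to 6.13 TPM without SNORD22. The cause of these shifts was not tested, and precision is limited by 2 libraries a group and by an unknown depth.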
